A study of Mus musculus with 31 samples.

Results

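The renin-angiotensin genes considered here were Ren1, Ren2, Agt, Ace, Agtr1a, Agtr1b, Agtr2 and Atp6ap2. A member was taken as measured when a probe of the array carried its name, or an older symbol of it, as its single gene name, a rule that used no measured value. By this rule 6 of the 8 genes were measured, with 7 of the 23040 probes, against 15096 named genes in all. Agt, Agtr1a, Agtr1b, Agtr2 and Atp6ap2 had 1 probe each. Ace had 2, called Ace probe 1 (feature 12511) and Ace probe 2 (feature 13467) below. No probe was matched to Ren1 or Ren2, and the renin genes were not analysed here.

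RNA came from 31 BXD/TyJ strains, which are inbred recombinants of C57BL/6J and DBA/2J, so that each carries the allele of either parent at a locus. For each strain, RNA of 3 replicates from males aged 8 weeks was pooled, labelled with the red Alexa Fluor dye and put on 1 array, beside pooled RNA of C57BL/6J males of that age in the green one. Strains BXD1 to BXD32 gave 24 arrays and strains BXD33 to BXD42 gave 7, a division taken from the known history of the panel's breeding, which the labels do not give. The dyes were never swapped, each strain was 1 pool on 1 array with no second pool, and p-values measure the spread between strains, where the effect of a strain and that of its array cannot be told apart. Titles name kidney, but the source and tissue fields give whole brain, and no label decides between them. The values are ratios and hold no levels, so neither the presence of a tissue's markers nor the level of 1 gene against another could be read from them.

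Each value is a log2 ratio of strain over C57BL/6J, where 0 is no difference. This direction and log base are the likely reading, from the dyes in the labels and the red over green convention of limma, on which each direction given here depends. Every array held 23040 values with a median of 0.0127 and an SD of 0.602, and once sorted the 31 columns held the same values. Correlations between arrays ran from -0.0926 to 0.808. Spot position within a repeat of 480 spots accounted for 36.7% of the variance of the probes' mean ratios, so each mean below is also given, where it matters, with the position median of its array subtracted. A probe passed the threshold when its Benjamini-Hochberg adjusted p over all 23040 probes was under 0.05. For the mean over strains 57.5% of all probes passed, 27.2% higher and 30.3% lower.

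The renin-angiotensin system is a cascade that raises blood pressure and retains salt. Renin, an aspartic protease released by juxtaglomerular cells of the kidney, cuts angiotensinogen, the product of Agt, to angiotensin I, and angiotensin-converting enzyme, the product of Ace, trims this to angiotensin II. Angiotensin II acts on type 1 receptors, encoded in rodents by Agtr1a and Agtr1b, and on the type 2 receptor, encoded by Agtr2. In the kidney, Agt is made by proximal tubule cells and Ace sits on their brush border and on endothelium. C57BL/6J carries a single renin gene, whereas DBA/2J carries Ren1 and Ren2 side by side.

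Promoters of 6 of the 8 genes were found in the RefSeq table of build GRCm38.p6, a C57BL/6J assembly, which spans 250 bases before to 50 bases after each start site. The 4 below are shown because they belong to the substrate of the cascade (Agt), the pair of receptor genes with the widest spread over strains (Agtr1b, Agtr2) and the member with the narrowest (Atp6ap2). Capitals mark any of 4 motifs searched on both strands: the TATA box TATAAA, the GC box GGGCGG, the CCAAT box CCAAT and TGTTCT, the core hexamer of androgen receptor sites. In Atp6ap2, 1 run of capitals holds a GC box and the hexamer end to end, and another holds a GC box overlapping a CCAAT box.

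Agt, chr8:124569657-124569956, minus strand: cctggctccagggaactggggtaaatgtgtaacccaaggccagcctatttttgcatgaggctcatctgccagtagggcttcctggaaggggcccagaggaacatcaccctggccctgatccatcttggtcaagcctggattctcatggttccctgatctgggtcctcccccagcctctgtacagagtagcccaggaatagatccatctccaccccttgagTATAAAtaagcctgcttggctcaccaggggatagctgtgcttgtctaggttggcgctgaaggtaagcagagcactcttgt
Agtr1b, chr3:20367128-20367427, minus strand: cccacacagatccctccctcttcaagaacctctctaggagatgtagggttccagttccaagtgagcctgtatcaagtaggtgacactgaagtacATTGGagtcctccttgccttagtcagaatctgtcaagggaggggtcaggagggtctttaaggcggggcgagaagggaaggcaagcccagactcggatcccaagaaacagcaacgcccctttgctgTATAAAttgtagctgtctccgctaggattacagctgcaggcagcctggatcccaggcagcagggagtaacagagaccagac
Agtr2, chrX:21484374-21484673, plus strand: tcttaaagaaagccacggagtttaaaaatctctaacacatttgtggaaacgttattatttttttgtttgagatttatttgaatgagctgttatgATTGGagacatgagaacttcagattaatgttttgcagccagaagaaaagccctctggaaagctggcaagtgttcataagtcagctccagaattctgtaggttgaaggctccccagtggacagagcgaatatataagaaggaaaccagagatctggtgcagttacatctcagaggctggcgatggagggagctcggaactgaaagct
Atp6ap2, chrX:12587509-12587808, plus strand: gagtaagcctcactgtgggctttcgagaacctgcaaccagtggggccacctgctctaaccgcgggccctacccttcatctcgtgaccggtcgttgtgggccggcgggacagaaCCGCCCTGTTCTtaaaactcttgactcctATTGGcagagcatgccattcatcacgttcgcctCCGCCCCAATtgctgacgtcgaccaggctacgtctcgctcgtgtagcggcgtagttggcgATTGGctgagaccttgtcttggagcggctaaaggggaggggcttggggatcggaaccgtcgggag

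TATAAA began 30 bases before the annotated start of Agt and 31 bases before that of Agtr1b, and 29 bases before that of Ren1, whose promoter is not printed. On either strand it was found in 13.6% of the 32851 promoters of this length. Agt had 1 CG dinucleotide, Agtr1b and Agtr2 had 5 each, and Atp6ap2 had 24, against a median of 7. Atp6ap2 also held GGGCGG on 2 occasions, CCAAT on 3 and TGTTCT on 1. These motifs were found in 35.7%, 37.4% and 19.0% of all promoters. Agtr1b and Agtr2 each held CCAAT on 1 occasion. Ace has 2 starts in the table. The window of the first held 29 CG dinucleotides, 4 GGGCGG motifs and 1 TATAAA on the opposite strand, and that of the second held 2 CG dinucleotides and 1 CCAAT motif. A match is a description of letters and not of a factor's binding. The array names do not tell which Ace transcript each probe reads.

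The first comparison asked which of the genes had a mean ratio away from 0. Agt, Agtr1a, Agtr2 and Atp6ap2 were higher in the strains, Agtr1b was lower, and neither Ace probe passed. Thus 5 of the 7 probes passed, 4 higher and 1 lower, beside 57.5% of all probes. The same 5 had an unadjusted p under 0.05, as had 61.7% of all probes. With spot position removed 4 of the 7 passed, namely Agt, Ace probe 2, Agtr1a and Agtr1b, beside 54.1% of all probes. The largest mean, that of Agtr2, stood at the 86.6th percentile of all probe means and that of Agtr1b at the 20.8th. The median absolute mean of all probes was 0.18. Agt, Agtr1a, Agtr1b and Agtr2 lay farther from 0 than that, and Atp6ap2 and both Ace probes nearer. All p-values are from limma, 2-sided. The C57BL/6J RNA was a common reference whose own spread is left out, and dye effects shared by all arrays are held in every mean.

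**Figure D1:**
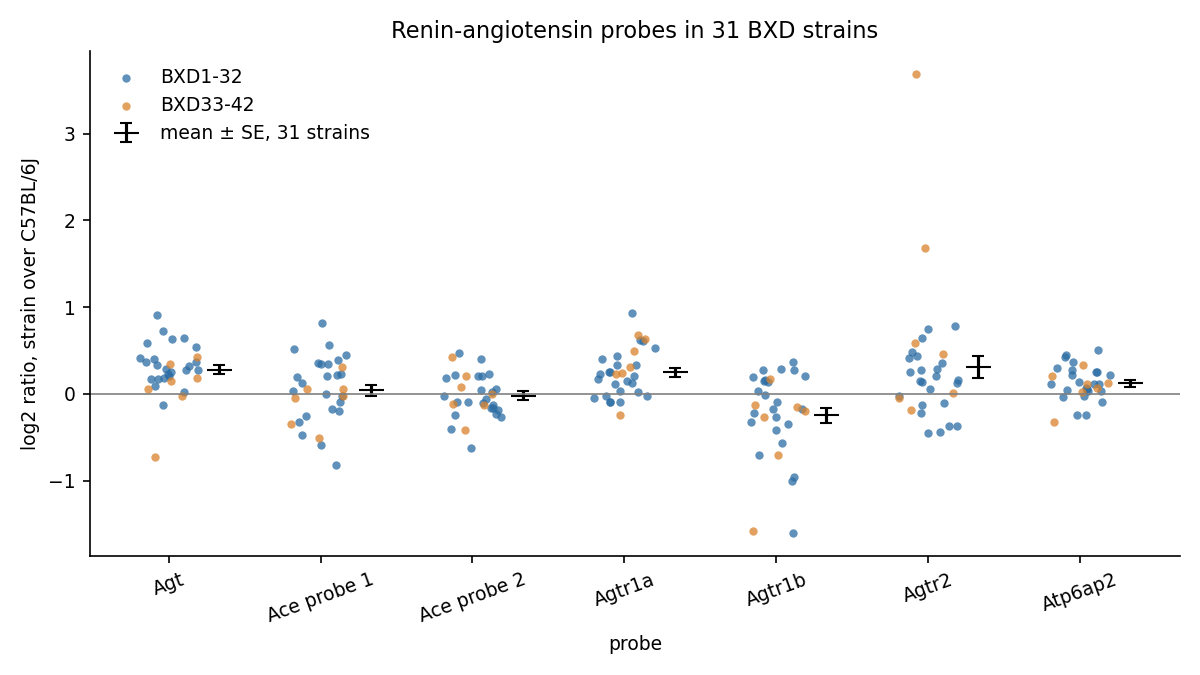
Log2 ratio of strain over C57BL/6J (vertical axis) for the 7 probes (horizontal axis). Each point is 1 of 31 strains, blue for BXD1-32 and orange for BXD33-42, and the bar beside each column is the mean ± SE. Most Agt points lie above 0, Atp6ap2 is the tightest column, and Agtr2 has 1 strain at 3.69 and 1 at 1.68.

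Agt, the substrate from which all angiotensins are cut, ran from -0.73 in BXD38 through a median of 0.28 to 0.91 in BXD20. It was above 0 in 28 of 31 strains. The exceptions were BXD38, BXD23 at -0.13 and BXD34 at -0.02. Its mean was 0.28 ± 0.0542 (SE, n = 31 strains, adjusted p = 5.2e-05), a ratio of 1.21. With spot position removed the mean was 0.24 (adjusted p = 1.89e-04). The strains' values lay close together, with an SD of 0.293 at the 24.4th percentile of all probes, whose median SD was 0.374. Leaving out each strain in turn gave means from 0.26 to 0.31, all past the threshold.

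Ace encodes the dipeptidyl carboxypeptidase that makes angiotensin II and breaks down bradykinin. Ace probe 1 ran from -0.82 in BXD22 and -0.59 in BXD21 through a median of 0.05 to 0.82 in BXD11, with 17 strains above 0 and 14 below. Its mean of 0.04 ± 0.0659 did not pass (SE, n = 31, adjusted p = 0.61), and it turned to -0.02 with spot position removed. Ace probe 2 ran from -0.63 in BXD14 through -0.06 to 0.47 in BXD6, with 13 strains above 0. Its mean of -0.02 ± 0.0479 did not pass either (adjusted p = 0.689), but with spot position removed it was -0.16 (adjusted p = 0.00734). The probes did not rank the strains alike: their correlation over strains was -0.236 (Spearman rho -0.251, permutation p = 0.202 and 0.173), and they had the same sign in 13 of 31 strains. BXD14, the lowest strain on probe 2, was the second highest on probe 1 at 0.56. Results below for Ace as a gene use the mean of these probes, which did not move together, and hold that limit.

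Agtr1a encodes the main type 1 receptor of the rodent kidney. It ran from -0.25 in BXD33 through a median of 0.23 to 0.93 in BXD8, with 24 strains above 0, and its upper strains were BXD8, BXD40 at 0.68 and BXD39 at 0.63. The mean was 0.25 ± 0.0516 (SE, n = 31, adjusted p = 1.29e-04), and 0.29 with spot position removed (adjusted p = 6e-06). It passed without each strain in turn.

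Agtr1b, the second type 1 receptor gene, is known for its part in the adrenal gland and the brain. It ran from -1.60 in BXD32 and -1.58 in BXD42 through a median of -0.17 to 0.37 in BXD14. A total of 20 strains lay below 0 and 11 above, and the low end was long: BXD29 stood at -0.96. The mean was -0.25 ± 0.088 (SE, n = 31, adjusted p = 0.0164). In BXD1-32 alone it was -0.20 and did not pass (adjusted p = 0.0772). The SD of 0.506 was at the 75.2th percentile of all probes. The type 1 receptor genes thus had means of opposite sign, and their correlation over strains was -0.0594 (permutation p = 0.752; rho -0.112, permutation p = 0.548).

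Agtr2 encodes the type 2 receptor, which is abundant before birth and scarce in most adult tissues. Most strains lay near the reference, from -0.45 in BXD28 through a median of 0.16, but BXD42 stood at 3.69 and BXD36 at 1.68. The next strain was BXD18 at 0.78. On the array of BXD42 the value was at the 99.9th percentile of all probes and on that of BXD36 at the 98.8th. The mean was 0.31 ± 0.13 (SE, n = 31, adjusted p = 0.041), with 21 strains above 0 and an SD of 0.763, at the 93.0th percentile. This call did not last: without BXD36 and BXD42 the mean was 0.15 (adjusted p = 0.054), in BXD1-32 alone it was 0.14 (adjusted p = 0.0994), and with spot position removed it was 0.24 (adjusted p = 0.136). It was also lost on leaving out any 1 of BXD2, BXD6, BXD15, BXD16, BXD18, BXD31, BXD33, BXD34 or BXD36, with adjusted p up to 0.0745. Without BXD42 alone the mean fell to 0.20 but still passed.

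**Figure D2:**
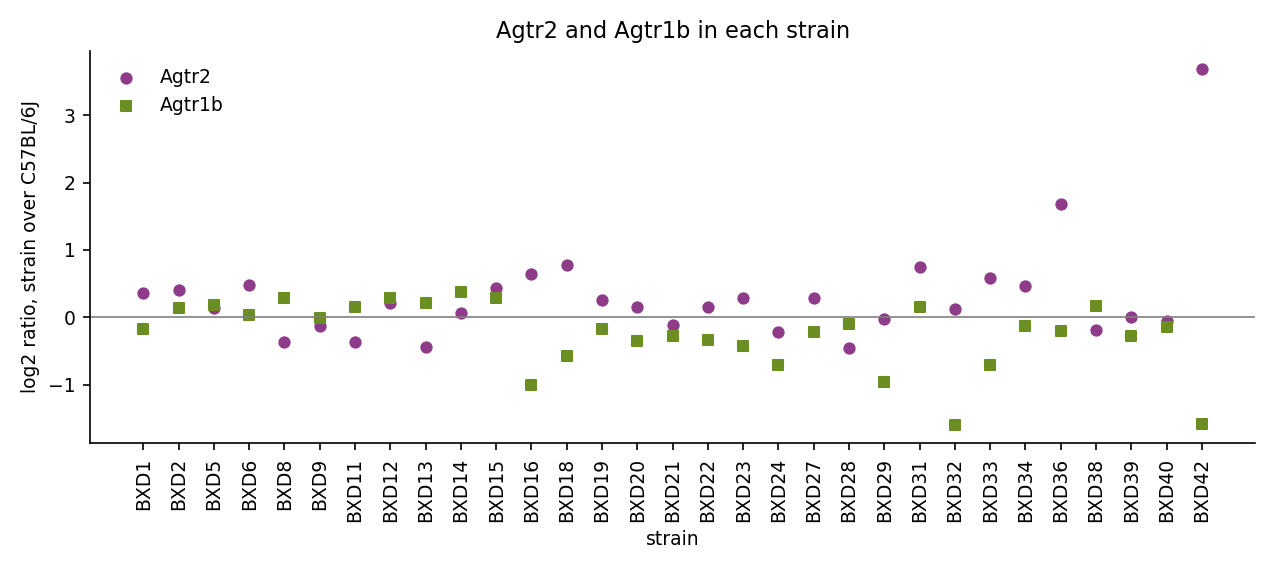
Log2 ratio over C57BL/6J (vertical axis) of Agtr2 (circles) and Agtr1b (squares) in each of 31 strains in order of strain number (horizontal axis). BXD42 has the highest Agtr2 value, 3.69, and an Agtr1b value of -1.58. BXD32, with the lowest Agtr1b value of -1.60, has an Agtr2 value of 0.13.

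Atp6ap2 encodes the (pro)renin receptor, a membrane protein that binds renin and prorenin and is also an accessory part of the vacuolar proton pump. It was the steadiest of the group, from -0.33 in BXD33 through a median of 0.11 to 0.51 in BXD22, with an SD of 0.198 at the 1.99th percentile of all probes. It was above 0 in 25 strains. The mean was 0.12 ± 0.0403 (SE, n = 31, adjusted p = 0.00879), and 0.08 with spot position removed, which did not pass (adjusted p = 0.101).

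The next comparison set the 7 strains of BXD33-42 against the 24 of BXD1-32. None of the 7 probes passed in limma, beside 0.00868% of all probes (2 of 23040, both lower). At an unadjusted p under 0.05, the Agt and Agtr2 probes were 2 of the 7, and 12.6% of all probes were under that limit. Agt had a mean of 0.34 in BXD1-32, with values from -0.13 to 0.91, and of 0.06 in BXD33-42, with values from -0.73 to 0.42. The difference, later minus earlier strains, was -0.29 ± 0.122 (SE, unadjusted limma p = 0.025, adjusted p = 0.32), and -0.15 without BXD38. Agtr2 had means of 0.14 and 0.89, a difference of 0.74 ± 0.288 (SE, unadjusted limma p = 0.0144, adjusted p = 0.273). The ranges overlapped, from -0.45 to 0.78 in BXD1-32 and from -0.19 to 3.69 in BXD33-42, and without BXD36 and BXD42 the difference was 0.02. For the other 5 probes, the differences were -0.21 for Agtr1b, -0.15 for Ace probe 1, -0.06 for Atp6ap2, 0.03 for Ace probe 2 and 0.11 for Agtr1a, with adjusted p from 0.734 to 0.93.

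Some probes also differed between low and high strain numbers. The division after BXD14 was known from earlier results of these data, so it is described with no test. Ace probe 1 was above 0 in 10 of the 10 strains from BXD1 to BXD14, with a mean of 0.37 ± 0.228 (SD), and in 7 of the 21 from BXD15 to BXD42, with a mean of -0.11 ± 0.318 (SD). Agtr1b was above 0 in 8 of the 10 and in 3 of the 21, with means of 0.15 ± 0.159 and -0.44 ± 0.508 (SD). Agt had means of 0.43 ± 0.181 and 0.21 ± 0.313 (SD) and was above 0 in 10 of the 10 and 18 of the 21. Agtr2, Agtr1a and Ace probe 2 had lower means in the first stretch, 0.03 against 0.44, 0.16 against 0.29 and -0.10 against 0.01. Atp6ap2 had 0.13 against 0.12. The ranges of the stretches overlapped for every one of these probes. The first principal component of all probes held 20.6% of the variance over strains. Its sign is arbitrary, and its correlation was -0.666 for Ace probe 1, -0.623 for Agt and -0.576 for Agtr1b, and between 0.297 and 0.35 for the other 4 probes. Its part in these differences was not tested.

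**Figure D3:**
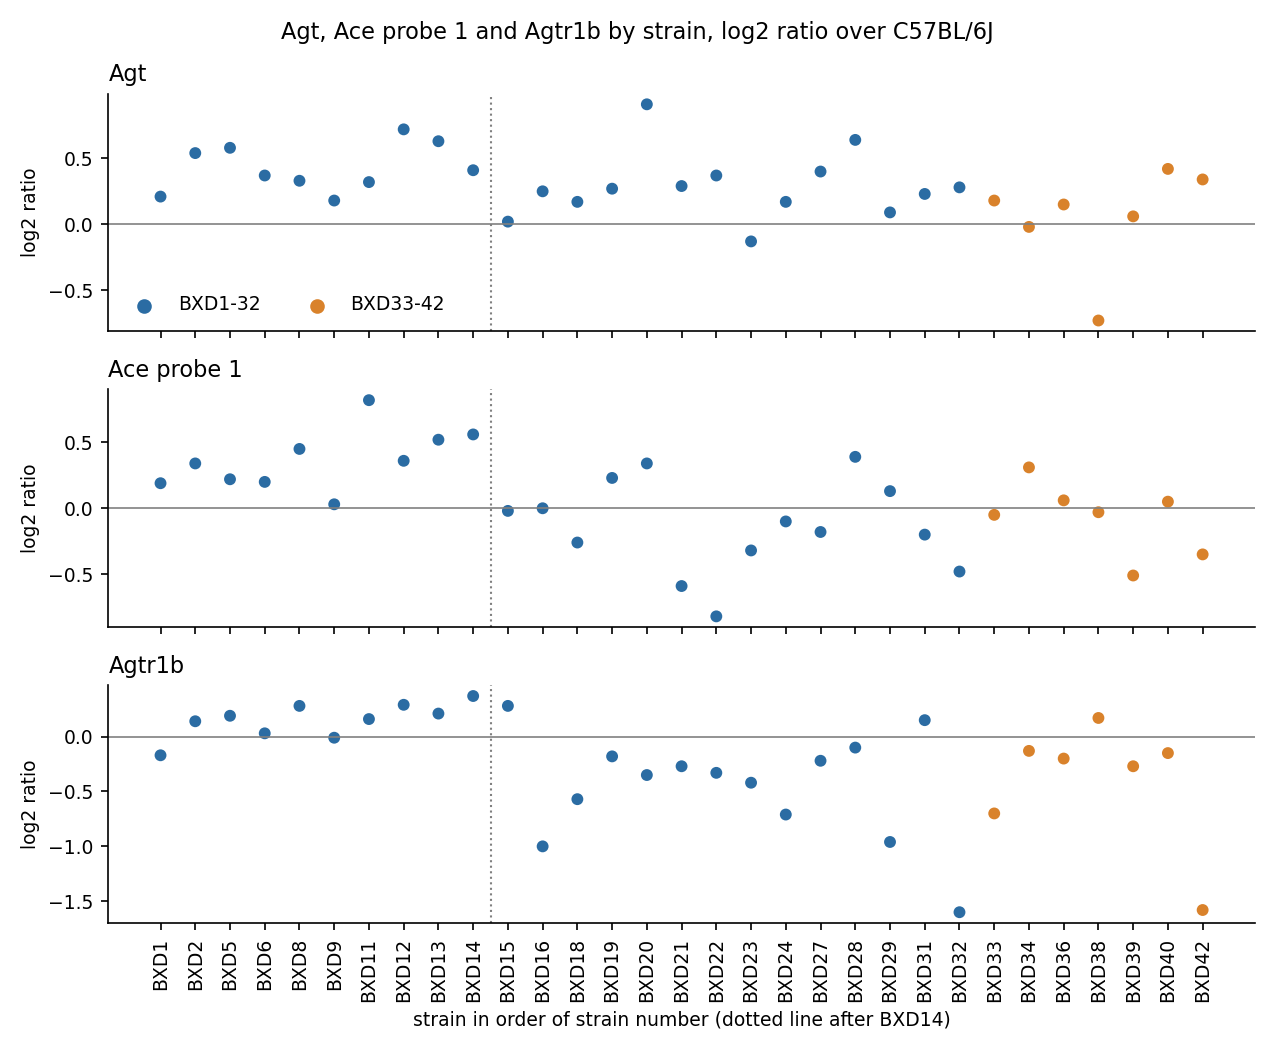
Log2 ratio over C57BL/6J (vertical axes) of Agt, Ace probe 1 and Agtr1b in strains in order of strain number (horizontal axis), blue for BXD1-32 and orange for BXD33-42. All 10 strains left of the dotted line after BXD14 are above 0 for Agt and Ace probe 1, and 8 of them for Agtr1b. To the right, 7 of 21 are above 0 for Ace probe 1 and 3 of 21 for Agtr1b.

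In inbred recombinants a strong local effect of the parental alleles would place strains at 2 levels, so the share of each probe's sum of squares removed by its best division into a lower and an upper set of at least 5 strains was computed and set beside all probes, with no test. None of the 7 probes reached the 95th percentile of that share, 76.9%. Agtr1b came highest, with 69.6% removed (73.9th percentile), by 7 strains at or below -0.57 and 24 at or above -0.42. Agtr1a followed with 66.2%, then Ace probe 1 with 64.4%, Ace probe 2 with 64.3% and Atp6ap2 with 62.2%, against a median of 64.5%. Agt had 48.0% (4.75th percentile) and Agtr2 49.0% (5.56th percentile). The place of Agt moved with some settings. It had 63.5% (41.3th percentile) without BXD15 and BXD38 and 57.2% (25.3th percentile) with the first principal component removed. With spot position removed Agt was at the 13.3th percentile, and with sides of at least 3 strains at the 3.31th. Agtr2 had 57.6% (20.0th percentile) with sides of at least 3 strains. Otherwise Agtr2 stayed low, at the 5.44th percentile without BXD15 and BXD38 and the 6.36th with spot position removed. With the first principal component removed Agtr2 was at the 6.48th. With the first principal component removed Agtr1a reached 75.3%, at the 96.4th percentile.

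Genes next to the members in the RefSeq gene order carry the same parental segment in most strains. For the 3 measured genes on each side of a member, chosen after the data were seen, the median absolute correlation with it was 0.225 for Agt, 0.197 for Ace, 0.122 for Agtr1a, 0.30 for Agtr1b, 0.263 for Agtr2 and 0.334 for Atp6ap2. Over all probes the corresponding medians were 0.238, 0.181, 0.180, 0.219, 0.161 and 0.154. The 6 genes around Atp6ap2 on chromosome X were the farthest above it, led by Bcor at -0.474, 4930500G05Rik at 0.386 and Med14 at 0.369. Near Agtr1b on chromosome 3, Nlgn1 stood at -0.527 and 4930412E21Rik at 0.468, and near Agtr2 the factor gene Elk1 stood at -0.472. Among the absolute correlations of their member with all probes, these were at the 95.2th, 90.5th and 97.0th percentiles. Bcor, 4930500G05Rik and Med14 were at the 98.9th, 94.7th and 93.4th for Atp6ap2. All of these were named because they were the largest beside their member. These correlations are a description over 31 strains that share arrays.

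Whether the genes of the cascade rose and fell together was asked by correlating the 6 genes, with the Ace probes averaged, in all 15 pairs. No pair passed after adjustment over the 15 (permutation tests of 100000 draws, 2-sided). The strongest was Agtr1b with Agtr2, at r = -0.478 (permutation p = 0.014, adjusted p = 0.211; rho -0.288, permutation p = 0.117). Without BXD32 and BXD42 it was -0.213, within BXD1-32 -0.144 and within BXD33-42 -0.861. Without BXD42 alone it was -0.155 and without BXD32 alone -0.576, so it rests on BXD42. Ace and Atp6ap2 had r = -0.357 (permutation p = 0.0494, adjusted p = 0.371; rho -0.354, permutation p = 0.0523), and -0.165 without BXD21 and BXD22. For the single probes it was -0.350 on Ace probe 1 and -0.0461 on Ace probe 2. Within BXD1-32 this pair had -0.482, within BXD33-42 -0.029, and in the strains from BXD1 to BXD14 it turned to 0.323. The substrate and its converting enzyme, Agt and Ace, had r = 0.141 (permutation p = 0.45, adjusted p = 0.865; rho 0.171, permutation p = 0.358).

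Ace probe 1 alone behaved otherwise than the mean of the Ace probes. Its correlation with Agtr1b was 0.525 (permutation p = 0.00238; rho 0.635, permutation p = 2.1e-04; adjusted p = 0.0262 for r over the 11 relations of single Ace probes, chosen after the data were seen). It was 0.563 without BXD11 and BXD22, 0.531 within BXD1-32 and 0.473 within BXD33-42. Within BXD1 to BXD14 it was 0.581 and within BXD15 to BXD42 0.260. Its size was at the 92.8th percentile of the absolute correlations of Ace probe 1 with all probes. Ace probe 1 and Agtr1b both had a negative correlation with the first principal component, -0.666 and -0.576. The part of that component in this relation was not tested. Ace probe 2 ran against Agtr1b at -0.420 (permutation p = 0.0189, adjusted p = 0.104; rho -0.481, permutation p = 0.00649), and at -0.448 without BXD6 and BXD14. With Agt the Ace probes had opposite signs, and neither relation passed. Ace probe 1 had 0.329 (permutation p = 0.071, adjusted p = 0.195; rho 0.451, permutation p = 0.0108). Ace probe 2 had -0.261 (permutation p = 0.155, adjusted p = 0.284; rho -0.284, permutation p = 0.122).

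Members were then set beside markers of the cells that could hold them, as the mean log2 ratio of each marker list per strain, in 48 relations of 6 genes with 8 lists. In RNA of a whole organ, fewer cells of a type and less RNA per cell cannot be told apart. Of the 48 relations 5 passed after adjustment, 4 of them with Agt. Agt was correlated with many probes: over all single probes its absolute correlation had a median of 0.238 and a 95th percentile of 0.574. Agt followed the 9 proximal tubule markers, with r = 0.731 (permutation p = 2e-05, adjusted p = 4.8e-04) and rho = 0.627 (permutation p = 2.4e-04). It was 0.666 without BXD2 and BXD38, 0.663 within BXD1-32, 0.811 within BXD33-42, 0.512 in BXD1 to BXD14 and 0.782 in BXD15 to BXD42. With the first principal component removed it was 0.575 (adjusted p = 0.0113). The marker mean ran from -0.28 to 1.54 in BXD1-32 and from -0.89 to 0.26 in BXD33-42, and its lowest strain was BXD38, also the lowest for Agt. All 9 markers had a positive correlation with Agt, with a median of 0.425 against -0.0154 for all probes. The glucose transporter gene Slc5a2 had 0.752, the drug-metabolising Cyp4b1 0.703, the organic anion transporter gene Slc22a6 0.692 and the urate transporter gene Slc22a12 0.667. The endocytic receptor genes Lrp2 and Cubn had 0.425 and 0.104, and Slc34a1, the phosphate transporter gene, 0.208.

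**Figure D4:**
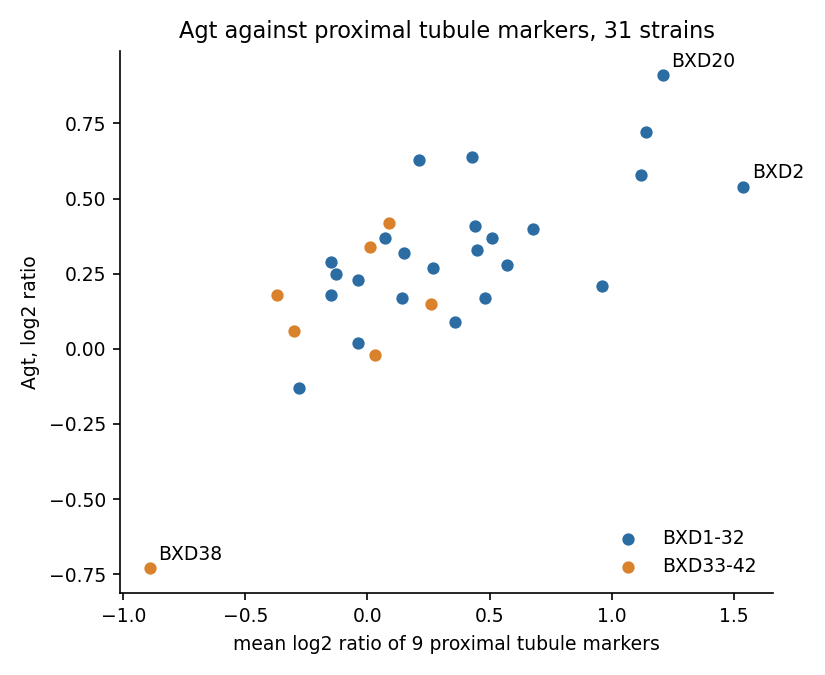
Agt log2 ratio (vertical axis) against the mean log2 ratio of 9 proximal tubule markers (horizontal axis) in 31 strains, blue for BXD1-32 and orange for BXD33-42. BXD38 lies lowest on both axes, at -0.73 and -0.89, and BXD20 has the highest Agt value, 0.91.

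The other relations of Agt were with endothelial, arteriolar and androgen-responsive genes. Of the single markers 6 of the 8 endothelial ones had a positive correlation with Agt (Tie1 had -0.122 and Cdh5 -0.0337), as had 5 of the 7 arteriolar ones (Pdgfrb had -0.260 and Gja4 -0.104) and 7 of the 7 androgen-responsive ones. For the 8 endothelial markers r was 0.649 (permutation p = 2e-05, adjusted p = 4.8e-04; rho 0.534, permutation p = 0.00214), 0.627 without BXD38 and BXD42, 0.691 within BXD1-32 and 0.427 within BXD33-42. It was 0.380 with the first principal component removed (adjusted p = 0.202). For the 7 markers of juxtaglomerular cells and arterioles r was 0.617 (permutation p = 2.2e-04, adjusted p = 0.00352; rho 0.525, permutation p = 0.00265), but 0.413 without BXD15 and BXD38 (adjusted p = 0.133) 0.479 with spot position removed (adjusted p = 0.123), and 0.351 within BXD1-32 (adjusted p = 0.372), against 0.797 within BXD33-42. For 7 androgen-responsive genes, of which Kap is also in the proximal tubule list, r was 0.530 (permutation p = 0.00203, adjusted p = 0.0195; rho 0.530, permutation p = 0.00249) and 0.542 without BXD2 and BXD33. It was 0.549 within BXD1-32 (adjusted p = 0.0559) and 0.165 within BXD33-42, and did not pass without BXD15 and BXD38 (0.483, adjusted p = 0.0929), with spot position removed (0.458, adjusted p = 0.123) or with the first principal component removed (0.314, adjusted p = 0.401). The marker lists share strains and arrays, so these 4 relations are not independent, and BXD38 was the lowest strain for Agt and for the proximal tubule, arteriolar and endothelial lists.

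The fifth relation was of Agtr1a with 4 podocyte markers, at r = -0.598 (permutation p = 4.6e-04, adjusted p = 0.00552; rho -0.577, permutation p = 9.2e-04) and -0.505 without BXD28 and BXD33. Within BXD1-32 it was -0.603 and within BXD33-42 -0.560. Of the single markers the sialomucin gene Podxl had -0.651, the slit diaphragm gene Nphs1 0.00483, Wt1 -0.152 and Synpo -0.0186. With spot position removed it was -0.315 (adjusted p = 0.368). Agtr2 had 0.430 with 4 adrenal markers (permutation p = 0.00672, adjusted p = 0.0538; rho 0.530, permutation p = 0.00233). No relation of Ace, Agtr1b or Atp6ap2 with a marker list passed. The median SD over strains of the neuronal and glial probes was 0.289, against 0.703 for the proximal tubule probes and 0.374 for all probes. It was 0.371 for the arteriolar, 0.378 for the endothelial, 0.462 for the podocyte and 0.385 for the distal nephron probes. For the adrenal probes it was 0.35 and for the androgen-responsive ones 0.899.

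The probes most like each gene over 31 strains, by Pearson correlation, are given as a description, since the best of so many probes must be high. For Agt these were Ptprf (0.813), which encodes a receptor phosphatase, the adenylyl cyclase gene Adcy6 (0.809) and Zc3h13 (0.805), all lowest in BXD38. Without BXD20 and BXD38 they were 0.677, 0.681 and 0.611. Those of Agtr1b were the transcription factor gene Usf1 (0.834), Gprc5c (0.816) and Gpr89 (0.790), all lowest in BXD32 and with correlations from -0.803 to -0.685 with the first principal component. Those of Agtr2 were the interleukin-18 receptor gene Il18r1 (0.807), Kdm1a (0.769) and Smarcc1 (0.757), all highest in BXD42, where Il18r1 stood at 3.04. Without BXD36 and BXD42 they were -0.0431, 0.614 and 0.308. Those of the mean of the Ace probes were Cul2 (0.718), Zbtb7a (0.715) and Cldn10 (0.690), those of Agtr1a were Abhd5 (0.718), Shisal1 (0.699) and 2410006H16Rik (0.696), and those of Atp6ap2 were Hsd3b7 (0.647), Masp2 (0.637) and 1700030L20Rik (0.634).

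Around the members, other enzymes and receptors of angiotensin peptides were taken from a list of 24 genes, of which 21 were measured. Of their 21 probes 6 were higher and 3 lower against C57BL/6J, 42.9% against 57.5% of all probes, with a median mean of 0.05. With spot position removed 4 were higher and 5 lower, so the balance of the counts turned. The chymase genes Cma1 (-0.65 ± 0.103, SE, adjusted p = 2.35e-06) and Cma2 (-0.46 ± 0.0733), whose mast cell proteases can form or cut angiotensins, were below 0 in 27 and 29 strains. Prcp, a carboxypeptidase gene, was lower at -0.18. The aminopeptidase gene Anpep (0.39 ± 0.0563, adjusted p = 5.67e-07), the dipeptidyl peptidase gene Dpp3 (0.38, and 0.19 with spot position removed) and the neurolysin gene Nln (0.31) were higher, in 27, 29 and 25 strains. The widest over strains were Cma1, the bradykinin receptor gene Bdkrb2 (-1.93 in BXD9 to 1.02 in BXD33) and the oligopeptidase gene Thop1 (-1.35 in BXD9 to 0.64 in BXD6), and the latter 2 had means of -0.14 and -0.06 that did not pass.

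Genes known to control renin cells were measured for 24 of 29 listed, with 29 probes. Here 15 probes were lower and 4 higher, 51.7% lower against 30.3% of all probes, with a median mean of -0.16 against -0.02. With spot position removed 14 were lower and 5 higher. The G protein gene Gnas was lowest at -1.04 ± 0.183 (SE, adjusted p = 1.22e-05), below 0 in 29 strains, but its other probe was at 0.30. The cyclic AMP response factor gene Creb1 stood at -0.71 ± 0.0982 and -0.19 on its probes. The vitamin D receptor gene Vdr was at -0.58 ± 0.0952 and below 0 in 30 strains. The prostacyclin receptor gene Ptgir was at -0.53 and the potassium channel subunit gene Kcnmb1 at -0.40, or -0.24 with spot position removed. Probes of the nitric oxide synthase gene Nos1 were at -0.43, -0.36 and 0.38, and the first of these was -0.09 with spot position removed (adjusted p = 0.203). By spread, Gnas, Hoxa9 (-1.19 to 2.13) and the calcium-sensing receptor gene Casr (-1.87 to 1.30) were widest.

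Downstream of the receptors, 22 of 26 signalling genes were measured with 25 probes, of which 10 were higher and 3 lower. That was 52.0% in all, against 57.5% of all probes, with 40.0% higher against 27.2% and 12.0% lower against 30.3%. Probes of the G protein gene Gnaq passed in both directions. The counts were 7 higher and 4 lower with spot position removed. The kinase gene Src (1.17 ± 0.145, SE, adjusted p = 3.65e-08) and the receptor gene Egfr (1.12 ± 0.101, adjusted p = 7.01e-11) had the largest means, Egfr above 0 in 31 of 31 strains. The phospholipase gene Plcb3 (0.57), the NADPH oxidase gene Nox4 (0.54, 31 of 31 strains) and the G protein gene Gna11 (0.37) were higher, at 0.29, 0.39 and 0.24 with spot position removed, and the receptor kinase gene Grk5 was lower at -0.35. Besides Src and Egfr, Prkcd had a wide spread, from -2.29 in BXD22 to 3.09 in BXD28, with a mean of 0.14 that did not pass. Of the aldosterone pathway 16 of 22 genes were measured with 16 probes, 6 higher and 3 lower. This was 56.2% in all, near the 57.5% of all probes, with 37.5% higher against 27.2% and 18.8% lower against 30.3%. With spot position removed 5 were higher and 4 lower. The sodium pump subunit gene Atp1b1 (0.65 ± 0.164, adjusted p = 0.00108), the steroid dehydrogenase gene Hsd3b1 (0.73 ± 0.111), the kinase gene Stk39 (0.56 ± 0.0493, above 0 in 31 of 31 strains) and the sodium channel gene Scnn1a (0.46 ± 0.103) were higher. Nedd4l, whose ubiquitin ligase removes that channel, was at -0.81 ± 0.127, and the channel gene Scnn1g at -0.35. Atp1b1, Nedd4l and Star were the widest, and Star, at 0.35 (adjusted p = 0.0145), was at 0.04 with spot position removed (adjusted p = 0.775).

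The protein of Atp6ap2 works with the vacuolar proton pump, and its mean of 0.12 stood beside those of 19 measured pump genes of 24. Of their 19 probes 12 were higher and 1 lower, 63.2% higher against 27.2% of all probes, with a median mean of 0.22. The counts were 11 higher and 3 lower with spot position removed. Atp6v0b (0.81 ± 0.085, SE, adjusted p = 1.33e-09) was above 0 in 31 of 31 strains, and Atp6v1g1 (0.52), Atp6v0a2 (0.31), Atp6v1h (0.29) and Atp6v1b1 (0.26, or 0.39 with spot position removed) followed. Before that correction Tcirg1 was the single lower probe, at -1.49 ± 0.109. The widest were Atp6v0a4, from -2.36 in BXD8 to 0.81 in BXD38, Tcirg1 and Atp6v0e, from -1.43 in BXD11 to 0.75 in BXD5, and Atp6v0a4 and Atp6v0e did not pass. The members of these lists were chosen with earlier results of these data known, the counts are a description of them, and none of their probes passed between BXD33-42 and BXD1-32.

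**Figure D5:**
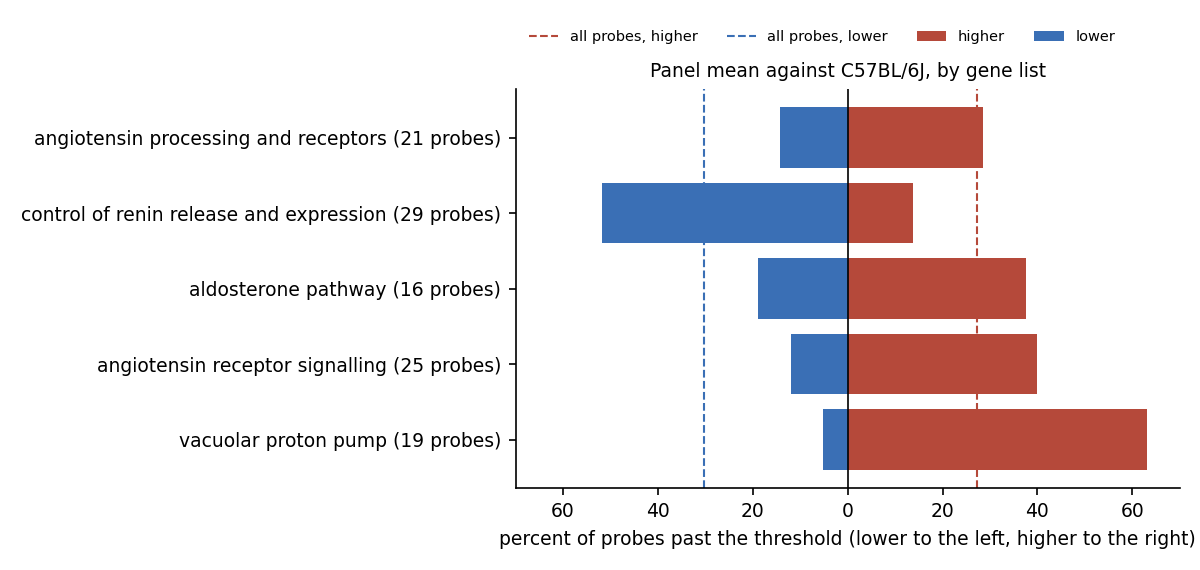
Percent of the probes of each gene list (rows) past the threshold against C57BL/6J, lower to the left in blue and higher to the right in red. Dashed lines give the percent for all probes, 30.3% lower and 27.2% higher. Renin control genes reach 51.7% lower and vacuolar proton pump genes 63.2% higher.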

How the data were processed

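The deposited values are log2 ratios of a spotted 2-colour array, 1 array for each of 31 strains, per the labels, and the authors had normalized them before deposit; the log base and direction are a likely reading and not stated. The submitters' processing notes name R 2.0.0 and limma, and the rest of the processing is not given in the sources used here. The identical sorted values of all columns show quantile normalization between arrays. No background, spot flag or signal over background was analysed here, and the number of arrays limits the precision.

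Of 23040 probes, 16874 carried 1 gene name in the platform's probe table, 134 several and 6032 none. Names and gene order came from RefSeq (16196 probes matched by gene number), and promoters from its GRCm38.p6 table. Means against 0 and the difference of BXD33-42 and BXD1-32 were tested with limma 3.58.1 in R 4.3.3 (lmFit, eBayes, Benjamini-Hochberg over all probes, 0.05). The fits were checked on simulated independent normal ratios with the SD of each probe. Such ratios lack the shared reference, the dye and spot position effects and the correlation between arrays, so the check does not cover these. Correlations used Pearson's r and Spearman's rho with 100000 permutations in Python 3.11.15, numpy 2.4.6 and scipy 1.17.1. r was repeated without the 2 strains farthest from the median of the first-named gene, or of the marker mean.

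All member probes were named. In each other list, up to 6 genes with the largest mean past the threshold and the 3 with the largest SD were named, and for each member the 3 most correlated probes. The members and lists were chosen with earlier results of these data known. Alternatives removed spot position, the first principal component, flat probes or strains, used array weights or ranks, or averaged probes.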

Additional observations from a re-analysis of the deposited data

Results flagged for a closer look

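Agt in BXD38 stood apart from the other strains of BXD33-42. Its log2 ratio was -0.73, the nearest of the other 6 strains was BXD34 at -0.02, and the gap took 0.621 of the range of the 7 strains, above Dixon's 95% limit for a group of that size. Both ends of 7 probes were examined, and chance passes this limit in about 1 of 20 groups.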

How the results depend on the processing

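The count of 13238 probes past the threshold against C57BL/6J was 8418 with the probes of a gene averaged, where fewer features were tested, and 12931 to 13483 on leaving out 1 strain at a time. The count between BXD33-42 and BXD1-32, 2 probes, was 1 with spot position removed, without BXD15 and BXD38 and with probes averaged, 0 with the first principal component removed and without BXD36 and BXD42, 116 with array weights, and 0 (without BXD36) to 33 (without BXD33) on leaving out 1 strain. No member probe passed there on leaving out any 1 strain. Of the pairs of members 0 passed, and 1 with Ace probe 1 alone. Of the member probes 0 reached the 95th percentile of the 2-level share, and 1, Agtr1a, with the first principal component removed. Signs turned for the mean of Ace probe 1 with spot position removed (-0.02), for the set differences of Ace probe 1 (0.02) and Ace probe 2 (-0.02) with the first principal component removed, and for Ace with Atp6ap2 within BXD1 to BXD14 (0.323). The cause was not tested. Atp6ap2 was among the flat probes and had no value where these were left out. The settings without BXD36 and BXD42, the single Ace probes, the division after BXD14 and the settings of the marker relations were chosen after seeing the data. No paired analysis was possible, because each strain was 1 pool on 1 array and no label links strains of BXD1-32 to those of BXD33-42.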
